A study of Mus musculus with 6 samples.

Results

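Phthalates are plasticizers, and several proteins have been discussed as their receptors in cells. Transcripts of 9 genes for such proteins were measured in mouse oocytes: Ppara, Ppard, Pparg, Rxra, Rxrb, Esr1, Esr2, Ahr and Arnt. They were taken by symbol from a count table of 25239 genes, and all 9 symbols were in it. The selection was by name. The table covered 6 libraries of oocytes at the germinal vesicle (GV) stage, when meiosis is still arrested and the nucleus is intact.

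The mice were female CD-1 animals, an outbred stock, aged 4 to 6 weeks. Per the labels, oocytes were taken from antral follicles inside their cumulus cells, microinjected, and kept in maturation medium with 10% fetal bovine serum, 200 mIU/mL follicle-stimulating hormone and 50 µg/mL sodium pyruvate. The Water-injected group (3 libraries, the control) received water, and the Phthalates-injected group (3 libraries) received a mixture of phthalate metabolites whose members and dose the labels do not name. Both groups shared the injection, the medium and the hormone. No label ties a library to an animal or a culture. Each group was therefore taken as 1 sample, and no difference was tested against the spread between animals. Each title reads as 1 oocyte, but whether the libraries of a group are separate oocytes is not stated in the sources used here.

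Libraries held 252267 to 300917 gene counts. Levels in CPM are counts per 1000000 gene counts of a library. The oocyte markers Gdf9 and Zp3, which encode a secreted growth factor and an egg coat protein, had 15367 and 5406 counts over the libraries. Of 23 cumulus and granulosa cell markers, 10 had any count, with 11 counts in all with water and 17 with phthalate. The granulosa genes Foxl2 and Amh were at 0 in all 6 libraries, while Cyp19a1, the aromatase gene, and Cyp11a1, a steroid synthesis gene, had 6 counts each and Fshr had 3. The inhibin and activin subunit genes Inha, Inhba and Inhbb had 2 counts each and Fst had 1, all in phthalate library 2. Of 17 markers of stroma, vessel and blood cells, 3 had a count, and Pecam1 held 77 of their 83 counts.

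Nuclear receptors are transcription factors that bind small fat-soluble molecules and then act on genes that carry their response elements. Peroxisome proliferator-activated receptors (PPARs) sense fatty acids and bind DNA only as pairs with a retinoid X receptor (RXR), while oestrogen receptors pair with each other. The aryl hydrocarbon receptor (AHR) belongs to another family, the bHLH-PAS factors, waits in the cytoplasm with HSP90 and enters the nucleus to pair with ARNT. In the ovary, oestrogen receptor beta is best known from granulosa cells. The comparison of the groups addresses how the metabolite mixture affects the oocyte, and the levels below show which of its candidate receptors had transcripts there.

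Transcripts of 8 of the 9 genes were detected, and Rxrb had no count. Of all genes in the table, 49.3% had no count. Counts were present in all 6 libraries for Esr2, Arnt, Rxra, Ppard, Pparg and Esr1, in 4 libraries for Ahr and in 3 for Ppara. Together the 9 genes took 683 counts, or 0.0407% of the total. Esr2 alone took 401 of them. The transcripts of most candidates were therefore measured from a few counts each, and only Esr2 and Arnt passed the filter on low counts that kept 4644 genes.

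**Figure D1:**
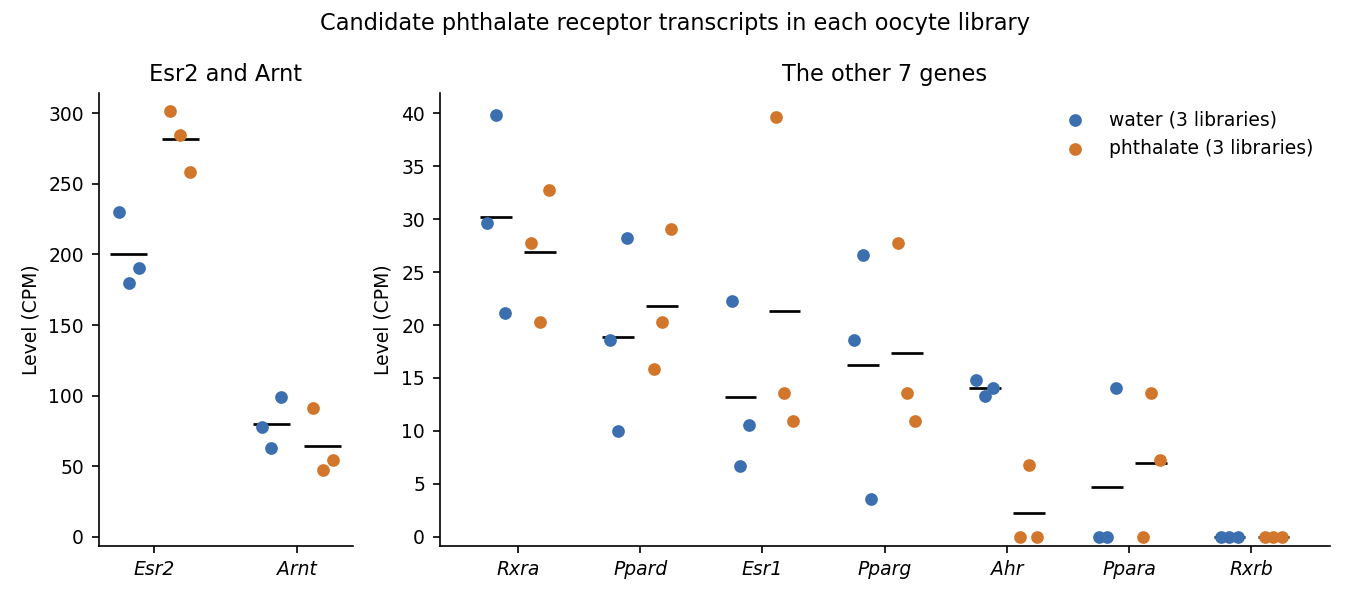
Level of each candidate receptor transcript in CPM (vertical axis) in the water (blue) and phthalate (orange) libraries, with points for single libraries and black lines for group means. The 3 phthalate libraries lie above the 3 water libraries for Esr2 and below them for Ahr, and the groups overlap for the other 7 genes, of which Rxrb is at 0 throughout.

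Esr2, which encodes oestrogen receptor beta, was the most abundant of the 9 transcripts and differed between the groups beyond counting error. It had 62, 54 and 54 counts in water libraries 1, 2 and 3 and 76, 84 and 71 in phthalate libraries 1, 2 and 3. In CPM the values were 230, 179 and 190 against 301, 285 and 258, so the lowest phthalate library lay above the highest water library. The group sums were 170 counts (95% exact Poisson interval 145 to 198) and 231 counts (202 to 263). The log2 ratio of phthalate over water was 0.51 (95% interval 0.22 to 0.81, exact interval of 2 counts given their sum), a 1.43-fold higher level. With counts halved to read pairs, since low counts in the table were mostly even, the interval was 0.10 to 0.94. Such intervals cover counting error only.

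Of the 4644 filtered genes, 4.52% had all phthalate libraries above all water libraries in CPM, 5.49% had the reverse, and 22.7% had an interval that lay on 1 side of 0. An absolute log2 ratio at least as large as that of Esr2 was found for 19.0% of the filtered genes, many of which had fewer counts. Of the 794 filtered genes with a mean count within 1.5 times of that of Esr2, 2.90% had a log2 ratio at or above its value and 4.41% had all phthalate libraries above all water libraries. Markers of cumulus and granulosa cells, which also express Esr2, summed to 7, 0 and 4 counts in the water libraries and 3, 12 and 2 in the phthalate libraries. The part of such cells in the Esr2 counts was not tested.

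Esr1, which encodes oestrogen receptor alpha, was low. It had 6, 2 and 3 counts in the water libraries and 10, 4 and 3 in the phthalate libraries, and the groups overlapped. Its log2 ratio was 0.70, with an interval of -0.48 to 1.94 that spans 0. Per kilobase of the longest transcript, the mean level over libraries was 71.6 CPM per kb for Esr2 and 2.72 for Esr1. Esr2 was the higher in 6 of 6 libraries, by 14.3 to 50.9 times. With the median transcript length of each gene in place of the longest, the ratio of the means was 11.3 instead of 26.3, so its size depended on the transcript assumed.

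Esr2 lies on the minus strand of chromosome 12 (GRCm38.p6, 76120419 to 76177259). Its exons overlap those of no other gene in GENCODE M21, and the pseudogene Gm7862 lies within it in the RefSeq table. Esr1 spans 4611989 to 5005633 on chromosome 10, on the plus strand. The 250 bases before the RefSeq start of Esr2 are shown because it is the receptor transcript with the most counts (GRCm38.p6, chr12:76177260-76177509, minus strand). They were searched on both strands for GCGTG, the core bound by AHR with ARNT, and for AGGTCA, the core bound by many nuclear receptors. In this and the following sequences, capitals mark a match to either motif in either orientation. This window holds no match.
Esr2 promoter: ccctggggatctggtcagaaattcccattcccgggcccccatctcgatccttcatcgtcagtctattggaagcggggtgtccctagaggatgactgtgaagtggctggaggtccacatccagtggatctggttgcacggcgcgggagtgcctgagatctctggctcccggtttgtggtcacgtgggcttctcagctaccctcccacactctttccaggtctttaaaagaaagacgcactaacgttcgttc

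The PPAR transcripts were all present at low level. Ppard, which encodes the broadly expressed PPAR delta, had 5, 3 and 8 counts in the water libraries and 4, 6 and 8 in the phthalate libraries. Pparg, which encodes the regulator of fat cell formation, had 5, 8 and 1 counts against 7, 4 and 3. Ppara, which encodes the regulator of fatty acid oxidation in liver, had 0, 0 and 4 counts against 0, 4 and 2. No PPAR separated the groups.

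The log2 ratios of the PPARs were 0.24 for Ppard (-0.81 to 1.31), 0.07 for Pparg (-1.11 to 1.25) and 0.66 for Ppara (-1.42 to 2.93). A difference between the groups was not detectable at this depth for any of them. On the scale per kilobase, Pparg averaged 7.91 CPM per kb, Ppard 5.46 and Ppara 1.71, with overlapping ranges over libraries. Ppara had a lower level than Ppard in 6 of 6 libraries.

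Among the RXR genes, the obligate partners of PPARs, only Rxra had counts. It had 8, 12 and 6 counts in the water libraries and 7, 6 and 9 in the phthalate libraries. Its log2 ratio was -0.17 (-1.06 to 0.71), and the groups overlapped. Its mean level of 5.83 CPM per kb was 1.07 times that of Ppard, and it was the higher of that pair in 3 of 6 libraries. Rxrg, the RXR gene outside the 9, was also at 0.

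Rxrb was at 0 in all 6 libraries. Over 1676410 gene counts, 0 allows a level of up to 1.79 CPM (3 counts of the total), or 0.681 CPM per kb of its longest transcript of 2627 bases. Of the 12543 genes with a count and a transcript length, 15.6% had a mean level below that. The limit for Rxrb would be higher if both mates of a pair were counted. Per kb it would also be higher with its median transcript length of 882.5 bases. No exon of Rxrb overlaps another gene, and none of the 50-base stretches of its longest transcript occurs in a transcript of another gene. Neighbouring genes had counts: Slc39a7, a zinc transporter gene directly upstream, had 29 over the libraries, and H2-Ke6 had 95. Brd2, a chromatin reader gene farther downstream, had 195. Ring1, Col11a2 and H2-DMa nearby had 0, 2 and 0 counts.

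Rxrb lies on the plus strand of chromosome 17 (GRCm38.p6, 34031812 to 34038403), and Ppard lies on the same chromosome from 28232754 to 28301469. Rxra spans 27676445 to 27763319 on chromosome 2, Pparg 115360879 to 115490404 on chromosome 6 and Ppara 85734910 to 85806851 on chromosome 15, all on the plus strand. The 250 bases before the first RefSeq start of Rxrb (chr17:34031562-34031811, plus strand) are shown as those of the candidate without a count. They hold 1 match to GCGTG, read here as its reverse complement, and none to AGGTCA.
Rxrb promoter: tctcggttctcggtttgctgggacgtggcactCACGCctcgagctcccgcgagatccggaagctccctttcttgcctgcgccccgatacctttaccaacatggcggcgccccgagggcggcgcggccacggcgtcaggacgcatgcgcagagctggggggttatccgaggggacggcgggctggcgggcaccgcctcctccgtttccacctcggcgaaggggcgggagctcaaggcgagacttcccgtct

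Ahr and its partner Arnt were present at unequal levels. Ahr had 4, 4 and 4 counts in the water libraries and 0, 2 and 0 in the phthalate libraries. It was thus found in 3 of 3 water libraries and in 1 of 3 phthalate libraries, and the groups did not overlap in CPM. The sums of 12 and 2 counts gave a log2 ratio of -2.51 (-5.71 to -0.35). Halved to read pairs, the interval was -8.04 to 0.53 and spanned 0. It also spanned 0 without phthalate library 1 (-5.17 to 0.20) or 3 (-5.18 to 0.19).

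Ahr was the only 1 of the 8 genes with a ratio that was past 2-fold, and it was lower with phthalate. Of the 10319 genes with over 3 counts in a group, 9.34% were at least 2-fold lower with phthalate and 9.39% at least 2-fold higher. Among the 1644 genes with 10 to 20 summed counts, like Ahr, 20.6% were at least 2-fold lower, 3.47% had all phthalate libraries below all water libraries, and 5.23% had them above, 8.7% together. Of 622 genes in that range of counts that were found in 3 of 3 water libraries, 21.4% were found in at most 1 phthalate library. In the reverse direction it was 22.0% of 574 genes. Detection in fewer libraries of 1 group, as for Ahr, was thus frequent among genes of like counts.

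Arnt, which encodes the nuclear partner shared by AHR and the hypoxia factors, had 21, 19 and 28 counts in the water libraries and 23, 14 and 15 in the phthalate libraries. In CPM the values were 77.9, 63.1 and 98.7 against 91.2, 47.5 and 54.6, and the groups overlapped. The log2 ratio was -0.31 (-0.86 to 0.23). Per kilobase, Arnt averaged 16.7 CPM per kb and Ahr 1.47, and Arnt was the higher in 6 of 6 libraries. Arnt lies on chromosome 3 (95434367 to 95497240, plus strand) and Ahr on chromosome 12 (35497979 to 35534989, minus strand). The predicted gene Gm48236 overlaps 127 exonic bases of Ahr.

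In the order of mean levels per kilobase, the ranges of neighbours over libraries overlapped from Arnt down. The order was Esr2, Arnt, Pparg, Rxra, Ppard, Esr1, Ppara, Ahr and Rxrb. Esr2 stood apart from Arnt, with its lowest library at 53.4 CPM per kb and the highest Arnt library at 22.8. With median transcript lengths Ahr moved above Esr1 and Ppara, at 7.07, 6.46 and 4.79 CPM per kb, and the other genes stayed in order. By the longest transcript, Esr2 lay at percentile 91.7 of the 12543 genes with a count and a length, Arnt at 72.9, and Ppara and Ahr at 30.3 and 27.8. Only this length was used for the percentiles.

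**Figure D2:**
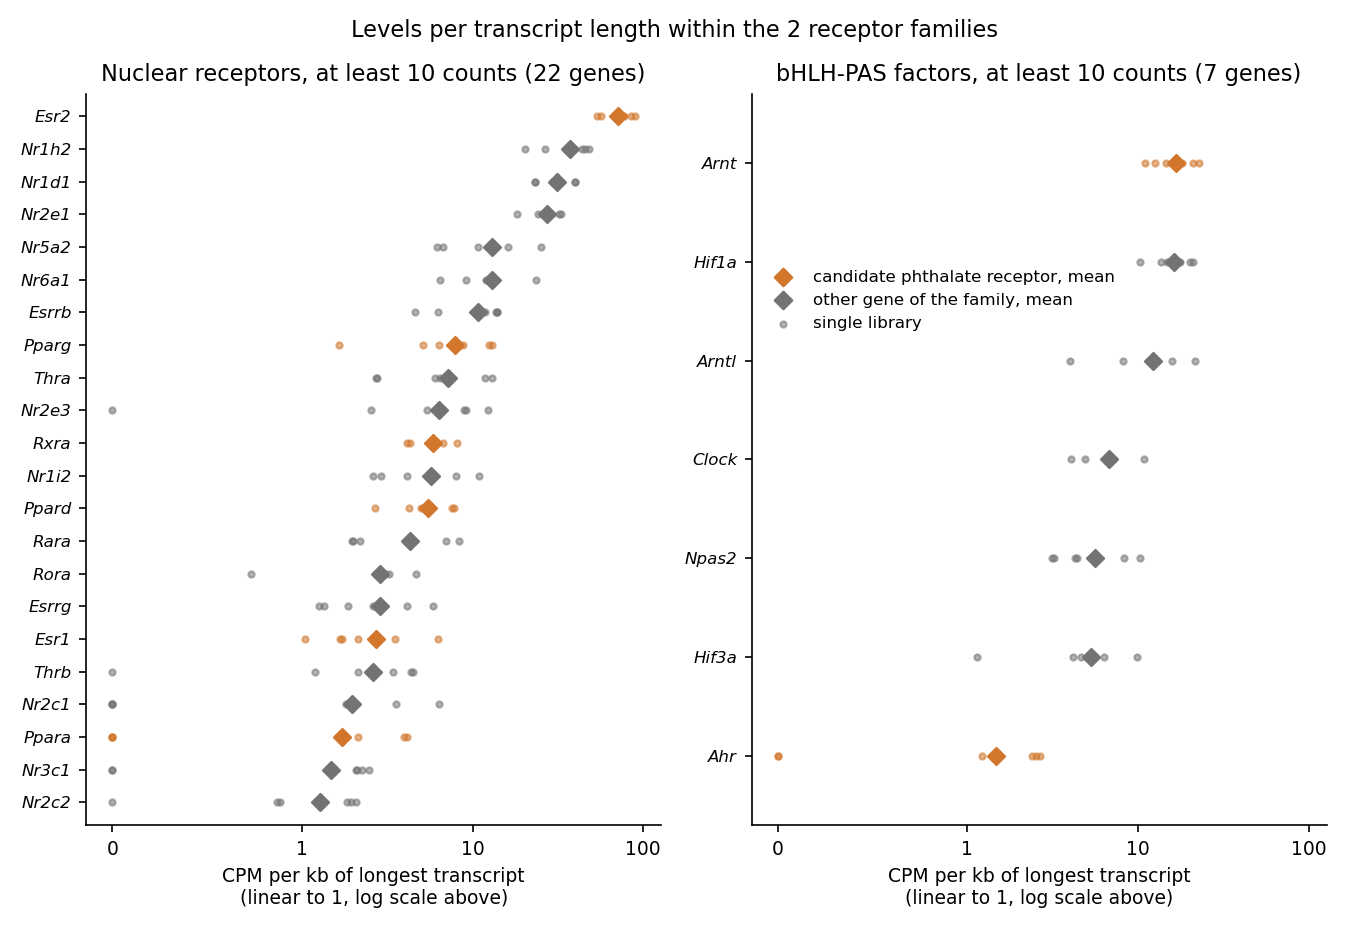
Level per kilobase of the longest transcript (horizontal axis, linear to 1 and logarithmic above) for each nuclear receptor (left) and bHLH-PAS gene (right) with at least 10 counts summed over the libraries. Diamonds are means over 6 libraries, small points are single libraries, and orange marks the candidate receptors. Esr2 and Arnt head their families on this length, with Hif1a close to Arnt, and the other candidates lie in the middle or lower part.

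The candidates were set beside the rest of their families. Of 49 mouse nuclear receptor genes, 29 had a count in some library and 16 had one in every library. Outside the 7 candidates, 23 of 42 had a count. Esr2 had the highest mean level of the 49 per kilobase and took 25.5% of all nuclear receptor counts, from 21.2% to 31.9% in a library. Next came Nr1h2, which encodes the oxysterol sensor LXR beta, at 37.2 CPM per kb, Nr1d1, which encodes the clock repressor REV-ERB alpha, at 31.0, and Nr2e1 at 27.4. This order rests on the longest transcript. With median transcript lengths Nr2e1 (126 CPM per kb), Nr1h2 (108) and Nr6a1 (100.3) lay above Esr2 (73.2).

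Among 16 bHLH-PAS genes, Arnt had the highest mean level by the longest transcript, and Hif1a, the hypoxia factor that also pairs with ARNT, was close at 16.2 CPM per kb. With median lengths Npas2 (49.0 CPM per kb) and Hif1a (43.6) lay above Arnt (27.7). Arnt2, which can take the place of Arnt, was at 0, and Ahrr, the AHR repressor, had 1 count in all. ARNT's close relative Arntl had 12.3 CPM per kb.

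**Figure D3:**
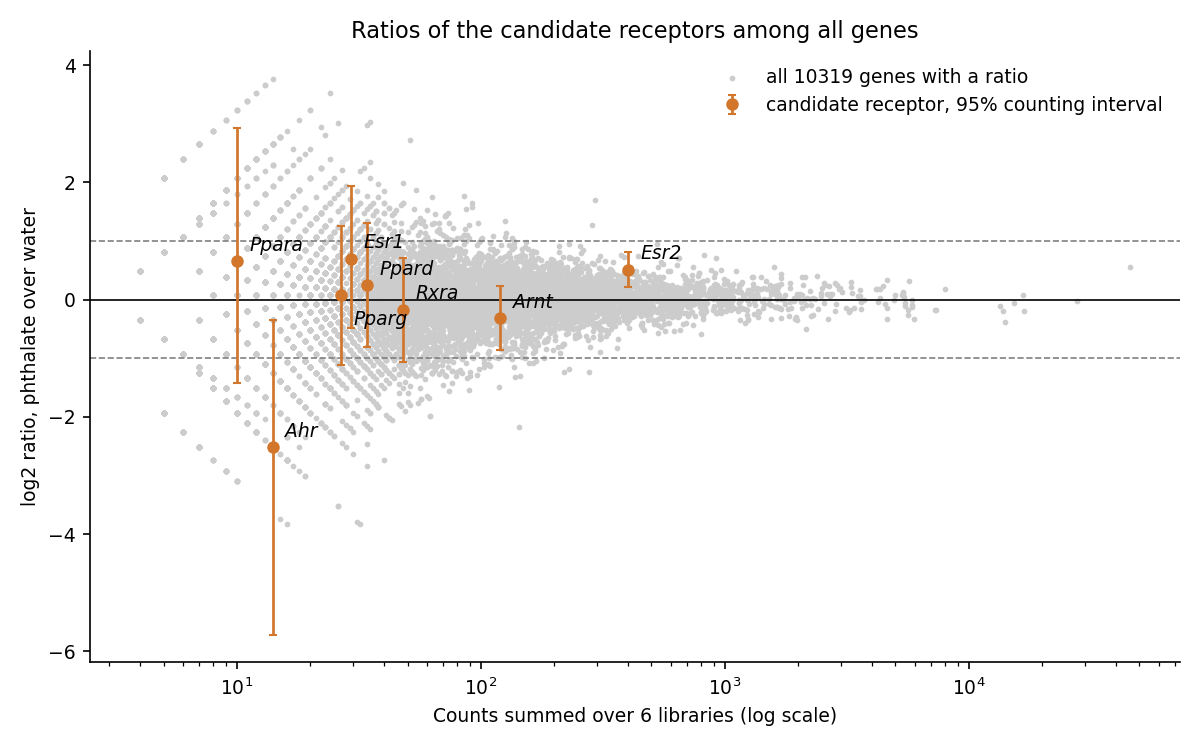
Log2 ratio of phthalate over water (vertical axis) against counts summed over 6 libraries (horizontal, log scale) for all genes with a ratio (grey) and for the 8 candidates with counts (orange, bars are 95% counting intervals). Dashed lines mark 2-fold. Esr1 and Pparg, both at 28 counts, are drawn slightly apart sideways, and the intervals of Esr2 and Ahr lie on 1 side of 0.

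Over the 8 genes with a ratio, 5 were higher and 3 lower with phthalate, and 2 had a counting interval on 1 side of 0. The groups were apart in CPM for 2 of the 9. Of all genes with over 3 counts in a group, 18.2% had such an interval and 9.44% had groups apart, 4.47% with phthalate above and 4.97% with phthalate below. The plot of ratios against counts shows how the spread widens below about 100 counts, where 6 of the 8 candidates lie.

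The pattern of Esr2 over the 6 libraries was most like that of Rps20, a ribosomal protein gene, and Hpf1, a gene of the ADP-ribosylation machinery. Likeness was measured on log2 CPM centred per gene, as the root of the mean squared difference over 6 libraries, among the 2784 genes averaging at least 20 counts. It was 0.0917 for Rps20 and 0.0944 for Hpf1, against a median of 0.409 over genes. Rps20 had 107, 97 and 103 counts in the water libraries and 133, 137 and 111 in the phthalate libraries. For Arnt, the most alike gene was Gorasp2, which encodes a Golgi stacking protein, at 0.125 against a median of 0.477.

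Chaperones hold receptors ready for their ligand, and transcripts of the main heat shock proteins among them exceeded those of the receptors. Hsp90aa1, an HSP90 gene, averaged 3023 CPM per kb, with 8318 counts summed over water and 8317 over phthalate libraries. Hsp90ab1, the other cytosolic HSP90 gene, averaged 439.6 CPM per kb and had a log2 ratio of 0.28 (0.15 to 0.42), with overlapping groups. Others were lower than Esr2 per kilobase of the longest transcript, among them St13 at 25.9 CPM per kb and Cdc37, a kinase cochaperone gene, at 9.24. With median transcript lengths St13 (95.7 CPM per kb) lay above Esr2 (73.2) and Cdc37 (63.4) below it. Ptges3, the HSP90 cochaperone p23, had 97 and 56 counts and a log2 ratio of -0.72 (-1.22 to -0.23), again with overlapping groups.

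Of 14 receptor chaperone genes, 11 passed the filter, 5 higher and 6 lower with phthalate. Their median log2 ratio was -0.10, beside 0.0089 over all 4644 genes, of which 51.2% were higher. None was past 2-fold, beside 1.14% of filtered genes at least 2-fold higher and 1.64% at least 2-fold lower. Groups were apart for 3 of the 11, beside 10% of filtered genes in either direction. They were Fkbp5, an immunophilin of steroid receptors, at 0.42 (0.20 to 0.65), Stip1 at -0.35 (-0.62 to -0.09) and Ahsa1 at -0.42 (-0.67 to -0.17), an activator of HSP90.

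Coactivators and corepressors, which nuclear receptors recruit to chromatin, were mostly present. Of 20 genes, 18 had a count and 12 passed the filter, 7 higher and 5 lower with phthalate, with a median log2 ratio of 0.02, or -0.13 without the filter. None of the 12 was past 2-fold, beside 1.14% of filtered genes higher and 1.64% lower. Ncoa3, a steroid receptor coactivator, had 248 and 214 counts (-0.14, interval -0.41 to 0.13), and the acetyltransferase gene Crebbp had 308 and 295 (0.01, -0.23 to 0.25). Ppargc1a, the PPAR gamma coactivator, was at 0 in all libraries. In CPM, groups were apart for 3 of the 12, beside 10% of filtered genes. Tbl1xr1 was higher with phthalate (0.52, -0.16 to 1.21), and Ep300 (-0.79, -1.45 to -0.15) and Ncoa2 (-0.17, -0.61 to 0.25) were lower. For Ncoa2 the margin was small, at 109.7 CPM in water library 2 and 107.0 in phthalate library 1. CPM does not include the scaling used for the ratios. Below the filter, Pprc1 had 30 counts with water and 11 with phthalate (-1.38, -2.52 to -0.34, groups overlapping). Carm1, an arginine methyltransferase gene, had 3, 4 and 2 counts in the water libraries and 0 in each phthalate library, and Ppargc1b had 9, 9 and 10 against 6, 0 and 8. In the other direction Ncoa7 had 5 and 8 counts (0.75). Of genes with over 3 counts in a group, 9.34% were at least 2-fold lower and 9.39% at least 2-fold higher.

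**Figure D4:**
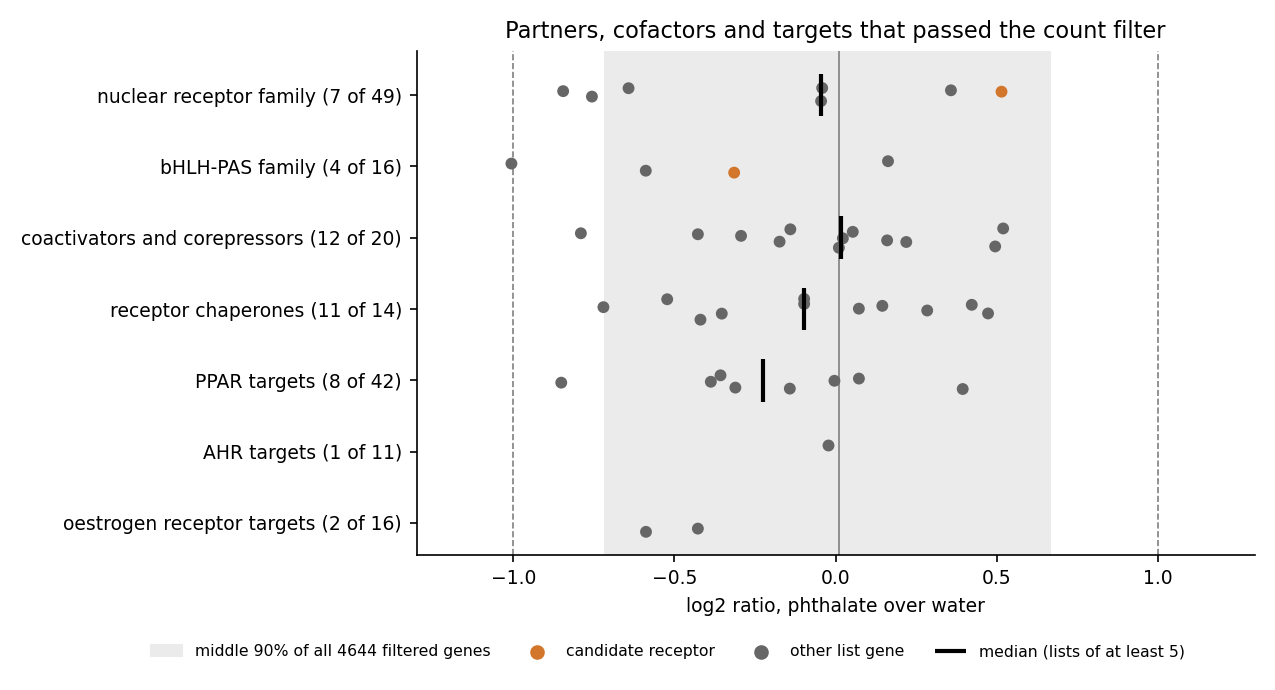
Log2 ratio of phthalate over water (horizontal axis) for the genes of each list that passed the count filter, with their number and the list's size beside the name. Orange marks candidate receptors, black bars are medians of lists with at least 5 such genes, the grey band holds the middle 90% of all 4644 filtered genes, and dashed lines mark 2-fold. All list genes lie inside the dashed lines except Arntl at -1.01.

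Of 42 known PPAR targets, 18 had no count, beside 49.3% of all genes in the table. Among the 18 were Cpt1a and Cpt1b, which admit fatty acids to mitochondria, and Pdk4 and Fabp1. Angptl4 had 2 counts, from 1 phthalate library. Among targets averaging at least 20 counts, those with most RNA per kilobase of the longest transcript were Me1, which encodes malic enzyme, Fabp5, which encodes a fatty acid carrier, and Pex11a, which encodes a peroxisome division factor.

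Me1 had 237.5, 276 and 324 CPM in the water libraries and 186, 281 and 276 in the phthalate libraries, with overlapping groups and a log2 ratio of -0.14 (-0.42 to 0.13). Fabp5 had 156 and 148 counts and a log2 ratio of -0.004 (-0.34 to 0.33). Pex11a had 101 and 75 counts and a log2 ratio of -0.36 (-0.81 to 0.09). Of the 8 targets that passed the filter, 2 were higher and 6 lower, with a median of -0.23, and 0 were past 2-fold or apart. Over the 4644 filtered genes 51.2% were higher and 10% apart, with 1.14% at least 2-fold higher and 1.64% at least 2-fold lower. Without the filter the list's median was 0.03, on the other side of 0. The lowest that passed was Hsd17b4, a peroxisomal oxidation enzyme gene, at -0.85 (-1.55 to -0.18). Below the filter, Cyp4a14, which encodes a fatty acid hydroxylase, had 3, 3 and 10 counts in the water libraries and 0, 0 and 2 in the phthalate libraries. Its groups were apart, and its log2 ratio was -2.93 (-6.09 to -0.84). Among the 1644 genes with 10 to 20 summed counts, like Cyp4a14, 20.6% were at least 2-fold lower and 3.47% were apart with phthalate below.

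Of 11 AHR targets, 5 had no count, a share near that of all genes: Cyp1a1, Cyp1a2, Cyp1b1, Ugt1a6a and Lrat. The first 3 encode the cytochrome P450 enzymes that serve as the usual readout of AHR activity. Tiparp, an AHR-induced ADP-ribosyltransferase gene, held 94.4% of the list's counts. It had 427, 588 and 469 CPM in the water libraries and 563, 390 and 513 in the phthalate libraries, and the groups overlapped. Its log2 ratio was -0.02 (-0.22 to 0.18). Nqo1, a quinone reductase gene, had 10, 4 and 0 counts against 6, 5 and 6.

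The 250 bases before the RefSeq start of Tiparp (GRCm38.p6, chr3:65528197-65528446, plus strand) are shown because it is the AHR target with the most counts. They hold 1 match to GCGTG, 170 bases before the start and as its reverse complement.
Tiparp promoter: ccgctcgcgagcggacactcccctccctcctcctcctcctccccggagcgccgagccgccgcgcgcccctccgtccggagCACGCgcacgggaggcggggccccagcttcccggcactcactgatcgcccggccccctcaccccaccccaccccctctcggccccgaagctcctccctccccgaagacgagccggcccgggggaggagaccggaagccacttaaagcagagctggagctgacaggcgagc

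Across 32851 RefSeq promoter windows of 250 bases, 28.2% held GCGTG and 14.0% held AGGTCA on either strand. Among 10 of the 11 AHR targets with a window, 5 held GCGTG. The candidates had 13 windows for 8 genes, of which 6 held GCGTG and 3 held AGGTCA. The PPAR and RXR element, searched as AGGTCA repeated after 1 base of any kind, was in none of the 13 and in 11 of all windows. The oestrogen response element, searched as AGGTCA, 3 bases of any kind and TGACCT, was in none of the 13 and in 7 of all windows. Both contain AGGTCA. A match describes the letters and not a bound site.

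Of 16 oestrogen receptor targets, 9 had no count, beside 49.3% of all genes, among them Pgr, the progesterone receptor gene, and Ltf and Tff1. The list shares Esr1 with the candidates. Its 2 genes that passed the filter were Ctsd, which encodes the protease cathepsin D, at -0.59 (-1.29 to 0.09) with groups apart, and Nrip1, a corepressor gene, at -0.43 (-1.17 to 0.29). Neither interval excluded 0, and 5.49% of filtered genes had groups apart with phthalate below, as Ctsd did. Greb1 had 11 counts in all.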

How the data were processed

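The values deposited are raw counts, 1 row for each of 25239 gene symbols and 92 ERCC spike-ins, in 6 libraries. Per the labels' protocols these were Smart-seq3 libraries (oligo(dT) priming, template switching, PCR), sequenced as pairs of 150 bp reads. The submitters' processing notes name cutadapt, Trimmomatic, HISAT2, DESeq2 and mm10. The counting tool, annotation, use of strand and handling of molecular identifiers are not given in the sources used here. Even values made up 69.9% of counts from 1 to 20, so both mates of a pair may be counted. Counting intervals may therefore be too narrow, and they leave out PCR duplicates and animals.

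ERCC counts were left out. Counts were summed per group and divided by library sizes scaled by edgeR TMM factors (edgeR 4.0.16, R 4.3.3; filterByExpr with a minimum count of 10 and total of 15). A sum of 0 was set to 3 counts, and no ratio was given where both sums were at most 3. Intervals are exact at 95%. The code was tested on simulated data. No tests were run: each title reads as 1 oocyte and no animal or culture is labelled, so the 3 libraries of a group were taken as 1 sample. Libraries of the same group were not copies of each other (chi-square per degree of freedom from 1.17 to 2.32 on read pairs, against 1.44 to 1.93 between groups; phthalate libraries 1 and 3 differed most of all pairs).

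Lengths came from GENCODE M21 and matched 98.0% of genes with a count. Positions and promoters came from RefSeq on GRCm38.p6, and 8 of the 9 candidates had a promoter entry; Ahr had none. Exon overlaps and the 50-base matches used GENCODE M21.

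The candidates and gene lists were chosen with earlier results of these data known. Named genes were the 9 candidates, the 3 highest in level and the 3 largest in ratio of each list among genes averaging at least 20 counts, family genes averaging at least 5, and the 2 genes most alike in pattern. Some genes are not reported here. Other genes were named after their values were seen, for a count of 5 or fewer, for a level at or near 0, as neighbours of Rxrb, or, below 20 counts on average, for their values (Nr1i2, Nr3c1, Cyp4a14, Nqo1, Hsd17b4, Pprc1, Carm1, Ppargc1b and others).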

Additional observations from a re-analysis of the deposited data

How the results depend on the processing

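Of 88 alternatives for the candidates' ratios, the 8 with read pairs change only the interval. The others (size factors of DESeq2 1.42.0, plain totals with and without Rn45s, means of CPM, and each library left out) lay inside the counting interval of the reported ratio. Scaling moved the median over all genes by less than 0.1. The sign changed in 8 of the others, for Esr1, Ppara, Ppard, Pparg and Rxra. Leaving out 1 library gave log2 ratios from 0.45 to 0.61 for Esr2, -0.61 to -0.10 for Arnt and -2.54 to -1.26 for Ahr, whose value without phthalate replicate 2 sets a sum of 0 to 3 counts. It gave -0.03 to 1.27 for Esr1, -0.26 to 1.20 for Ppara, -0.07 to 0.66 for Ppard, -0.40 to 0.68 for Pparg and -0.39 to 0.11 for Rxra. Groups that do not overlap fix the sign of Esr2 and Ahr. The number of genes at least 2-fold higher went from 53 to 969 without a filter and to 6 at a mean count of at least 20, and the number lower from 76 to 964 and 11, as other genes were included. Leaving out 1 library gave 60 to 113 higher and 85 to 143 lower, and list medians of -0.14 to 0.10 for chaperones, -0.14 to 0.05 for coactivators and corepressors, -0.33 to -0.11 for PPAR targets and -0.30 to -0.02 for nuclear receptors. At 3 counts for detection, 9 instead of 16 nuclear receptors were in every library, and 4 instead of 6 candidates. No paired analysis was possible because the design used here runs no test and takes the 3 numbered libraries of a group, for which the labels name no animal or culture, as 1 sample. At 252267 to 300917 counts per library, 7 of the 9 candidates had under 10 counts on average, and their intervals spanned 0 except for Ahr; Rxrb gave none.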

Other observations

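Among other nuclear receptors, Esrrb, which encodes an orphan receptor related to the oestrogen receptors, had 59.4, 59.8 and 59.9 CPM in the water libraries and 19.8, 27.1 and 50.9 in the phthalate libraries. Its log2 ratio was -0.85 (95% counting interval -1.58 to -0.15), and the groups did not overlap, as for 10% of filtered genes. Nr6a1, the germ cell nuclear factor, had 87 counts with water and 49 with phthalate (-0.76, -1.29 to -0.23), and Nr5a2 had 64 and 39 (-0.64, -1.26 to -0.05), both with overlapping groups. Intervals on 1 side of 0 were found for 22.7% of filtered genes. Of the 7 nuclear receptors that passed the filter, 2 were higher and 5 lower, with a median of -0.05, and 0 were past 2-fold. Over all filtered genes 51.2% were higher, 1.14% were at least 2-fold higher and 1.64% at least 2-fold lower.

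Among bHLH-PAS genes, Arntl, a circadian clock gene, had 63.1, 86.4 and 49.3 CPM in the water libraries and 15.9, 47.5 and 32.7 in the phthalate libraries, with a log2 ratio of -1.01 (-1.72 to -0.32), past 2-fold as 1.64% of filtered genes were in that direction. Clock, its partner gene, had 68 and 43 counts (-0.59, -1.17 to -0.02) with overlapping groups, and Npas2, which can replace Clock, had 19 and 20. Nr1d1, the repressor gene of the same loop, had 64 and 78 counts (0.36, -0.14 to 0.86).

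Other proteins proposed as phthalate targets were mostly low. Of 14 such genes, 3 had no count: Nr1h4, Rxrg and Esrra. Nr1i2, which encodes the xenobiotic sensor PXR, had 2, 2 and 3 counts in the water libraries and 7, 6 and 4 in the phthalate libraries, which do not overlap, and a log2 ratio of 1.35 (0.01 to 2.86). Of genes with over 3 counts in a group, 4.47% were apart in that direction and 9.39% were at least 2-fold higher. The lower limit for Nr1i2 is close to 0, and no interval on read pairs was computed for it. Nr3c1, the glucocorticoid receptor gene, had 0, 4 and 0 counts against 4, 4 and 4 (1.66, -0.07 to 3.75). In CPM, groups were apart for 3 of the 14 genes, Nr1i2 and Nr3c1 with phthalate above and Esrrb with phthalate below, beside 9.44% of genes with over 3 counts in a group. For Nr3c1 the margin was 13.3 CPM in water library 2 against 13.6 in phthalate library 2, both from 4 counts. Among genes with 10 to 20 summed counts, like Nr3c1, 5.23% were apart with phthalate above and 19.5% were at least 2-fold higher. Nr1i3, the sensor CAR, had 2 counts in all. Nr1h2 had 64 and 59 counts (-0.05, -0.58 to 0.49).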
